A study of Homo sapiens with 2 samples.

Results

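The metallothioneins and MTF1 were described here by every probe set of the array named for one of them. The members were chosen by gene symbol, as MT1 followed by 1 capital letter, MT2A, MT3, MT4 or MTF1, and they were 12 of 14884 named genes. They comprised 11 metallothionein genes and MTF1, each with 1 of the 16098 named probe sets. The family was taken up because the levels of MT1F, MT1G, MT1X and MT2A on these same arrays were known to differ, so their differences are given as a description with no test. RefSeq lists 16 genes under the metallothionein symbols on chromosome 16, and 5 of them, MT1A and the pseudogenes MT1CP, MT1DP, MT1IP and MT1JP, had no probe set named for them in the platform annotation.

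RNA was measured in BE(2)-C, a MYCN-amplified cell line from a human neuroblastoma. One culture had received linc00467 siRNA-1 and the other a scrambled control siRNA, and both were harvested 48 hours after transfection. An Affymetrix HuGene-2_0-st array was used for each total RNA, and the authors deposited 1 log2 expression level per probe set. The arrays do not cover a second siRNA or a second cell line, and there was 1 array per condition, so no difference has an error or a p-value. The comparison asks which RNAs differ in level when linc00467 is knocked down.

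LINC00467, the targeted RNA, had a log2 level of 5.67 with linc00467 siRNA-1 and 6.55 with control siRNA, a difference of -0.88. A sample description of the knock-down array names its target lncMycN, whereas its title, source and treatment name linc00467. Of 8 adrenergic neuroblastoma markers, 7 had a named probe set, with log2 levels between 6.41 and 10.96 with linc00467 siRNA-1 and between 6.52 and 11.09 with control siRNA. The 3 named endothelial markers of 4 lay between 3.44 and 4.62 with linc00467 siRNA-1 and between 3.44 and 4.62 with control siRNA. Of 4 blood markers only CD14 was named, at 3.96 with linc00467 siRNA-1 and 3.80 with control siRNA. For comparison, 87 probe sets of gene families taken as silent in these cells, such as olfactory receptors, had a median of 3.74 with linc00467 siRNA-1 and 3.67 with control siRNA. The adrenergic markers were thus well above the median of the silent families on both arrays. The endothelial markers and CD14 were within 1 log2 unit of that median. The Schwann cell markers SOX10 and S100B, 2 of 4 on that list to be named, had log2 levels of 5.81 and 6.13 with linc00467 siRNA-1 against 5.81 and 5.96 with control siRNA.

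Metallothioneins are small, cysteine-rich proteins that bind zinc and copper and, on exposure, toxic metals such as cadmium. MTF1 is a zinc finger transcription factor that responds to zinc and binds metal response elements in metallothionein promoters, where it switches the genes on. Glucocorticoids and oxidative stress are also known to raise metallothionein mRNA. The MT1 genes, MT2A, MT3 and MT4 form a cluster on chromosome 16, and MTF1 lies on chromosome 1.

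Promoters of 6 of the 12 members are in the RefSeq promoter table of GRCh38.p14, and 4 of them are printed. They set a pair of genes with lower levels after linc00467 siRNA-1, MT2A and MT1X, beside MT4. The levels of MT4 were nearly equal and above the median of silent gene families on both arrays, but whether its RNA was detected was not tested. MT1H is added because it holds the most matches of the 6. Its probe set lay below the median of the silent families on both arrays, so it is no contrast in level. Each line gives the 250 bases before the annotated start, read 5′ to 3′ on the plus strand, which is the strand of these genes. Capitals mark every match on either strand to the core of the metal response element, searched as TGCACNC and TGCGCNC. The windows are chr16:56608334-56608583 for MT2A, chr16:56682220-56682469 for MT1X, chr16:56564823-56565072 for MT4 and chr16:56669564-56669813 for MT1H.
MT2A: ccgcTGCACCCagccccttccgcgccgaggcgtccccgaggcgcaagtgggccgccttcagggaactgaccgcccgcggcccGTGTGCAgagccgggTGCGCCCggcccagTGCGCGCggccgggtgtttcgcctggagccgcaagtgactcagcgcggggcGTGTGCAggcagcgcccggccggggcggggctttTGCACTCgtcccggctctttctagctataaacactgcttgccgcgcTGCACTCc
MT1X: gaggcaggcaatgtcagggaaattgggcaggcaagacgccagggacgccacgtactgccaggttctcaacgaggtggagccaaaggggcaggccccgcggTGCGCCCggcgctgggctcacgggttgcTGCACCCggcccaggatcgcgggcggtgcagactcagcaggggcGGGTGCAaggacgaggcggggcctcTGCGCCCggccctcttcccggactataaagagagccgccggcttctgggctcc
MT4: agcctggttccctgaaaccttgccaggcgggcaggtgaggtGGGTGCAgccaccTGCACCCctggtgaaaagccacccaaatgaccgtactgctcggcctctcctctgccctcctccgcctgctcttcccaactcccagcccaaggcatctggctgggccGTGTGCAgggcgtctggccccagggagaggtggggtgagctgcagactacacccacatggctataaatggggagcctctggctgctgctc
MT1H: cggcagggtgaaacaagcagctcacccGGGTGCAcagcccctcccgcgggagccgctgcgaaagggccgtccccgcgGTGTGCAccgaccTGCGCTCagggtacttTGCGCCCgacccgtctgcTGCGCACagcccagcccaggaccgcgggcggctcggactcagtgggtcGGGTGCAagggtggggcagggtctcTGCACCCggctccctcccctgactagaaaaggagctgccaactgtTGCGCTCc

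With linc00467 siRNA-1, 4 of 11 metallothionein probe sets were at least 1.8 fold lower and none was at least 1.8 fold higher. The background was 0.578% of the 16098 named probe sets past this fold downward and 0.224% upward. The family was chosen with this contrast known, so nothing is read from the difference in shares. MT2A, MT1F and MT1G are on the study's own list past this fold, while MT1X was not found on it. The study chose 1.8 fold for its supplementary list because linc00467 itself was 1.84 fold lower with linc00467 siRNA-1, so the cut-off comes from these same arrays. The other 7 metallothioneins were within 1.2 fold, and so was MTF1. At 1.2 fold, 9.78% of named probe sets were lower and 8.5% higher, so most named probe sets lay within it as well. MT1G, with a log2 difference of -1.15, was the member just inside the cut-off, and MT1M, with -0.24, the one just outside it.

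MT1X, one of the MT1 isoform genes, had a log2 level of 7.60 with linc00467 siRNA-1 and 9.28 with control siRNA. Its log2 difference of -1.68 corresponds to 31.1% of the control signal, or 3.21 fold lower. MT2A, the metallothionein gene that is widely expressed across human tissues, had 7.46 with linc00467 siRNA-1 and 8.98 with control siRNA. Its log2 difference was -1.52, which leaves 34.9% of the control signal. On the array, MT1X and MT2A had the 2nd and the 4th lowest differences of all named probe sets.

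MT1F, another MT1 isoform gene, had a log2 level of 7.18 with linc00467 siRNA-1 and 8.35 with control siRNA, a difference of -1.17. MT1G had 4.73 with linc00467 siRNA-1 and 5.89 with control siRNA, a difference of -1.15. These correspond to 44.5% and 44.9% of the control signal, and to ranks 14 and 15 among the lowest differences of named probe sets. The 4 genes thus lay between 2.23 and 3.21 fold lower. MT1G is the only one of the 4 whose mean level, 5.31, is below the median of 5.68 over named probe sets. With linc00467 siRNA-1, MT1G was 0.99 log2 units above the median of the silent families, so a further fall may not be detectable. Among the 2698 named probe sets within 0.5 of its mean level, 2, itself included, reached a difference this low. For MT1X this held for 1 of 1684, which was MT1X itself, for MT2A for 3 of 1780 and for MT1F for 4 of 1889. The 3 include MT2A itself and MT1X, and the 4 include MT1F itself and MT2A. In each of these ranges of level the median difference was 0.00. The 4 genes were known to differ on these arrays when the family was chosen. Their ranks and these counts therefore describe them and test nothing.

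**Figure D1:**
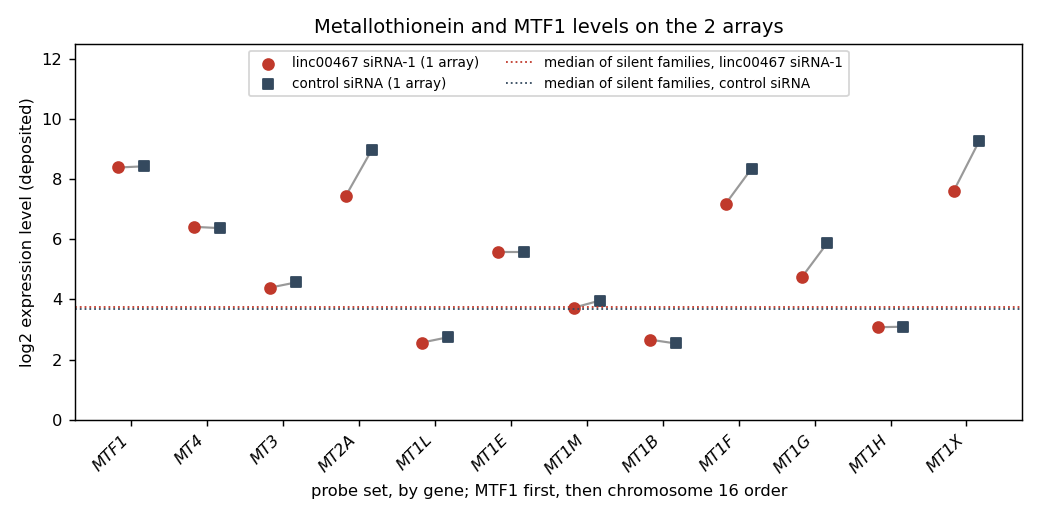
Deposited log2 level (vertical axis) of each metallothionein and MTF1 probe set (horizontal axis), with the linc00467 siRNA-1 array as circles on the left, the control siRNA array as squares on the right, and dotted lines at the median of the silent families on each array. MT2A, MT1F, MT1G and MT1X are lower on the linc00467 siRNA-1 array, while the pairs of the other 8 probe sets are nearly level.

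MT1E, also an MT1 isoform gene, had the same deposited log2 level, 5.58, on both arrays. Exactly equal values were found for 3689 named probe sets, 22.9% of all, so a difference of 0 in these files need not be an exact measure. MT4, which is known from stratified squamous epithelia, had 6.42 with linc00467 siRNA-1 and 6.37 with control siRNA, a difference of 0.04. MT3, the brain metallothionein, had 4.39 with linc00467 siRNA-1 and 4.56 with control siRNA, a difference of -0.17. MT1E, MT4 and MT3 lay above the median of the silent families on both arrays.

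The last 4 metallothioneins were at or near the level of the silent families. MT1M had 3.72 with linc00467 siRNA-1 and 3.96 with control siRNA, a difference of -0.24. MT1H had a log2 level of 3.07 with linc00467 siRNA-1 and 3.09 with control siRNA, a difference of -0.02. With linc00467 siRNA-1 both were below the median of the silent families, and with control siRNA only MT1M was above it. MT1B had 2.66 with linc00467 siRNA-1 and 2.53 with control siRNA, a difference of 0.13. MT1L, a transcribed pseudogene, had 2.56 with linc00467 siRNA-1 and 2.74 with control siRNA, a difference of -0.18. MT1B, MT1L and MT1H lay below the median of the silent families on both arrays, so a lower level at these probe sets may not be detectable.

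Over all 11 metallothioneins the median log2 difference was -0.18, against 0.00 over all named probe sets. Of the 11 differences 8 were below 0, but these include the 4 genes for which the family was taken up. For comparison, MT1E, at exactly 0, had rank 5822 from the lowest among the 16098 named probe sets, so those ahead of it were below 0. The family fell into separate sets, with 4 members between -1.68 and -1.15 and 7 between -0.24 and 0.13. The median of these 7 was -0.02. Metallothionein mRNAs are very similar in sequence, and the probe sequences of the array were not used here, so how much of a probe set's signal came from another member cannot be told apart. Fewer cells with metallothionein RNA and less of it per cell cannot be told apart in RNA of a whole culture either.

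**Figure D2:**
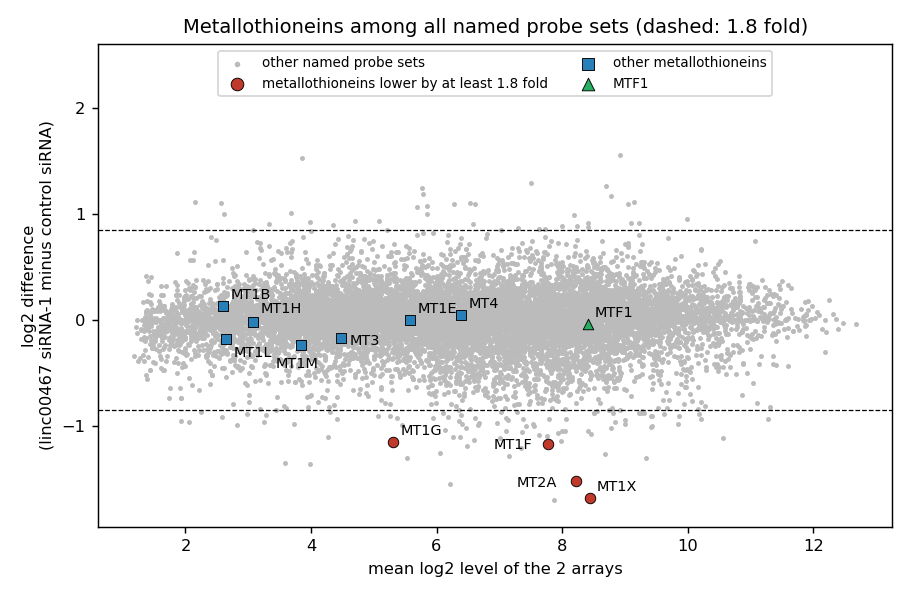
Log2 difference, linc00467 siRNA-1 minus control siRNA (vertical axis), against the mean log2 level of the 2 arrays (horizontal axis) for all 16098 named probe sets, with dashed lines at 1.8 fold. MT1X and MT2A lie near the lower edge of the cloud at mean levels of 8.44 and 8.22, while MTF1, at 8.41, lies at its centre.

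MTF1, the regulator of the family, had a log2 level of 8.39 with linc00467 siRNA-1 and 8.43 with control siRNA. Its difference of -0.04 is 97.3% of the control signal. Of the 1710 named probe sets within 0.5 of its mean level, 641 were at or under this difference. MTF1 activity depends on zinc binding and nuclear entry of the protein, which mRNA levels do not measure.

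Among the genes with a named probe set, the low members did not stand in a single run, although MT1F and MT1G were adjacent. In RefSeq order on chromosome 16, MT4 at 0.04 and MT3 at -0.17 were followed by MT2A at -1.52 on the log2 scale. MT1L at -0.18, MT1E at 0.00, MT1M at -0.24 and MT1B at 0.13 came next. They were followed by MT1F at -1.17 and MT1G at -1.15, then MT1H at -0.02 and last MT1X at -1.68. Members within 1.2 fold thus stood between MT2A and MT1F and between MT1G and MT1X. Of these, MT1L, MT1B and MT1H were below the median of the silent families on both arrays and MT1M was near it. A lower level at these probe sets may not be detectable. Only MT1E, at 5.58 on both arrays, was more than 1 log2 unit above that median. The Schwann cell marker SOX10, at 5.81 on both arrays, was higher still, so this level need not mean that MT1E RNA was detected. MT1JP, MT1A, MT1DP and MT1CP, between MT1M and MT1B, and MT1IP, between MT1H and MT1X, had no named probe set.

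Of the 20 nearest named genes that flank the cluster, 10 on each side, 4 were past 1.2 fold downward and 2 upward with linc00467 siRNA-1. The background at that fold was 9.78% of named probe sets downward and 8.5% upward, and the median of the 20 genes was 0.00. The gene next to the cluster on one side, BBS2, a Bardet-Biedl syndrome gene, had a log2 level of 8.06 with linc00467 siRNA-1 and 8.40 with control siRNA, a difference of -0.34. On the other side NUP93, a nuclear pore gene, had 10.41 on both arrays. The other lower neighbours were OGFOD1, a hydroxylase gene, at -0.45, the chemokine gene CX3CL1 at -0.33, and ARL2BP, which encodes a binding partner of a small GTPase. ARL2BP had 2 probe sets, of which one had a log2 difference of -0.94, past 1.8 fold, and the other -0.43. The higher neighbours were NUDT21, a gene of mRNA 3′ end processing, at 0.33 and PLLP, the plasmolipin gene, at 0.29.

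**Figure D3:**
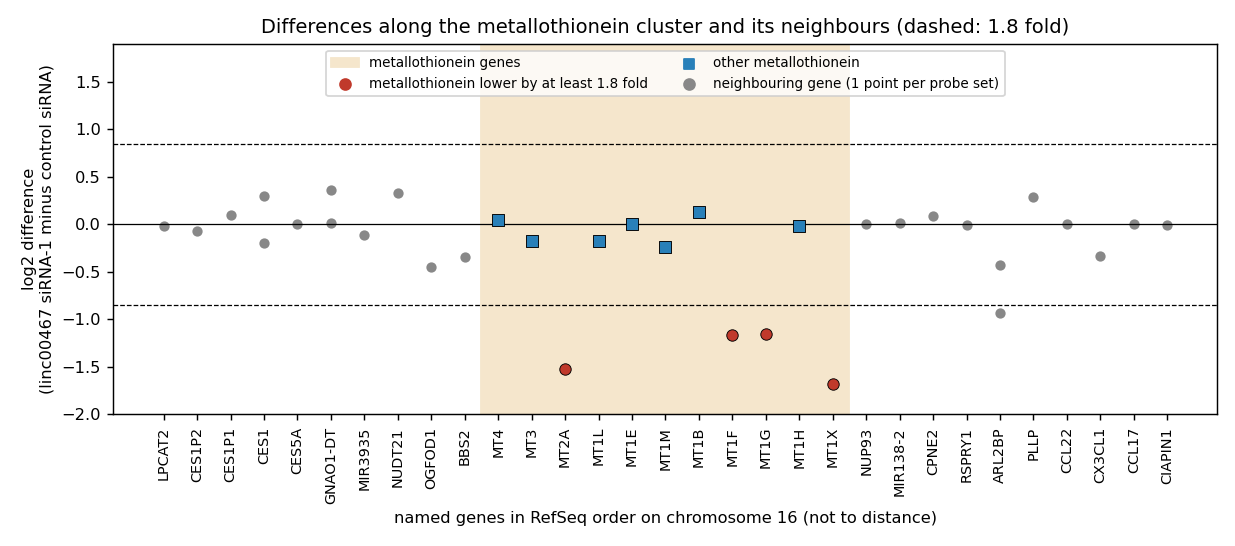
Log2 difference, linc00467 siRNA-1 minus control siRNA (vertical axis), for the named genes of the metallothionein cluster (shaded) and the 10 nearest named genes on each side, in RefSeq order (horizontal axis, not to distance), with dashed lines at 1.8 fold. Within the cluster 4 genes lie between -1.68 and -1.15, and among the neighbours only 1 probe set of ARL2BP, at -0.94, is below the lower dashed line.

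Of the 10 nearest named genes around MTF1 on chromosome 1, 5 on each side, only 1 was past 1.2 fold, in the downward direction, against 9.78% of named probe sets. This was MIR3659, a microRNA gene, with a log2 level of 2.97 with linc00467 siRNA-1 and 3.26 with control siRNA. Both levels were below the median of the silent families. The median difference of the 10 genes was 0.00.

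The printed MT2A promoter holds 7 matches to the metal response element core, 5 on the plus and 2 on the minus strand, and that of MT1X holds 4. MT4, which was within 1.2 fold, holds 3. MT1H holds 8 and MT1B 3, but both probe sets were below the median of the silent families on both arrays. Their small differences therefore give no contrast with MT2A and MT1X. Over 35116 RefSeq promoters of the same length, 24.8% had at least 1 match. At least as many matches as in MT2A were found in 0.0313% of them, as in MT1X in 0.37% and as in MT1H in 0.0171%. For MT4 and for MT1B, with 3 matches each, the share was 1.58%, so their counts were uncommon as well. Whether the number of matches goes with the differences in level was not tested. The MTF1 promoter held no match. These are counts of letters in a window, not of bound sites, and MT1F and MT1G are named only.

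A match to TATAAA on the gene's strand, the TATA box, stood between 30 and 24 bases before the start of MT2A, MT1X, MT1B and MT4, and 6.8% of all promoters hold one. GGGCGG, the GC box bound by Sp1, was searched on both strands and is in 42.6% of all promoters. It had 2 matches in MT2A, 2 in MT1X, 1 in MT1H, 1 in MT1B, 1 in MTF1 and none in MT4. One of the GC boxes of MT1X overlaps a metal response element core. By global alignment, the MT1X window was 60.8% identical to that of MT1H, 59.9% to MT1B and 53.9% to MT2A, over alignment columns with gaps included.

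**Figure D4:**
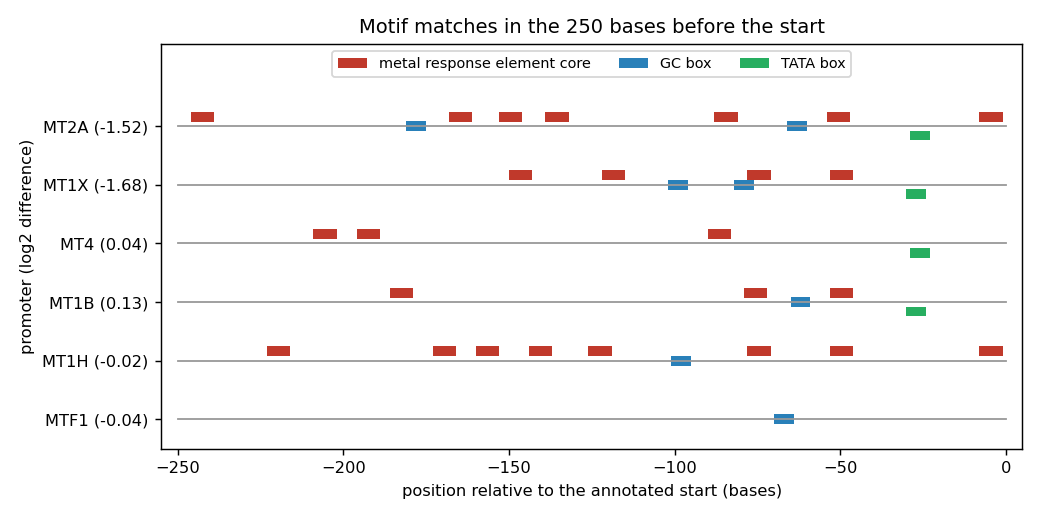
Matches to the metal response element core (upper bars), GC box (bars on the line) and TATA box (lower bars) in the 250 bases before the annotated start (horizontal axis, in bases) of 6 members, with each gene's log2 difference in parentheses. MT2A, at -1.52, has 7 metal response element cores, MT1X, at -1.68, has 4 and MT4, at 0.04, has 3. The probe sets of MT1H, with 8, and MT1B, with 3, lay below the median of the silent families on both arrays.

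Other known targets of MTF1, from work in human or mouse cells, were examined as a list of 8 genes, of which 4 had a named probe set. One of the 4 was past 1.2 fold downward, against a background of 9.78%, and their median log2 difference was -0.12. CSRP1, which encodes a LIM domain protein, had a log2 level of 5.52 with linc00467 siRNA-1 and 6.32 with control siRNA. Its log2 difference of -0.80, or 1.74 fold, was short of the 1.8 fold cut-off. SELENOH, a selenoprotein gene, had -0.24, NDRG1, a stress-responsive gene, had 0.04 and the growth factor gene PGF had 0.00. The promoter window of CSRP1 held 4 metal response element cores, and 0.37% of all promoters hold at least as many. Those of SELENOH and PGF held none, and no window was available for NDRG1. A link of these matches to the differences was not tested.

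None of the 10 SLC30 zinc exporter genes or the 14 SLC39 zinc importer genes had a named probe set, so zinc transport is not described. Of 13 copper handling genes, 8 were named. Past 1.2 fold, 3 of them had lower levels and 1 had a higher level, against backgrounds of 9.78% downward and 8.5% upward, and the median was 0.00. All 4 deliver copper to, or help assemble, cytochrome c oxidase in mitochondria. COX17, the copper chaperone of this pathway, had 5.73 with linc00467 siRNA-1 and 6.64 with control siRNA, a log2 difference of -0.91. COX11 had -0.39, COX19 had -0.35 and SCO1 had 0.38. ATOX1, CCS and SCO2 had equal levels on both arrays. COX17 is also on the study's list of genes past 1.8 fold, so its place here is no independent observation.

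In the lists for other pathways that are known to act on metallothioneins, no named gene was past 1.8 fold. Of 6 named NRF2 stress response genes of 12, 2 were past 1.2 fold, both upward, against a background of 8.5%, and the median was 0.07. TXNRD1, a thioredoxin reductase gene, had a log2 difference of 0.39 and SRXN1, the sulfiredoxin gene, had 0.30, while HMOX1, a heme oxygenase gene that also responds to heavy metals, had 0.07. Of 7 named heat shock response genes of 10, HSPB1, a small heat shock protein gene, was past 1.2 fold downward, with -0.30, against a background of 9.78%, and the list's median was 0.01. Of 7 named glucocorticoid response genes of 9, 2 were past 1.2 fold downward and 2 upward, against backgrounds of 9.78% and 8.5%. With so few named genes these counts are given as values only. ERRFI1, an EGFR feedback inhibitor gene, had -0.54 and SGK1, a kinase gene, had -0.28. KLF9, a transcription factor gene, had 0.50 and PER1, a circadian clock gene, had 0.28. The median of the glucocorticoid response genes was -0.07. The 2 named iron genes of 10, HAMP and HEPH, had 0.00 and 0.08.

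**Figure D5:**
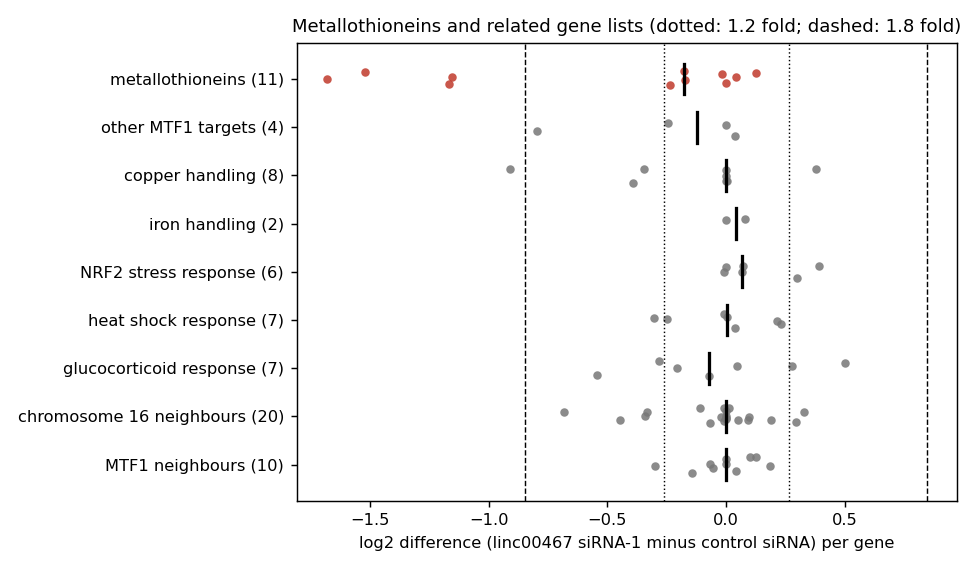
Log2 difference, linc00467 siRNA-1 minus control siRNA (horizontal axis), of each named gene (points) in the metallothionein family and 8 related lists (vertical axis, number of named genes in parentheses), with the list median as a bar, dotted lines at 1.2 fold and dashed lines at 1.8 fold. Several probe sets of a gene are averaged. The metallothioneins have 4 genes past 1.8 fold, for which the family was taken up, and COX17 of the copper list is the only other gene past it. By itself, 1 probe set of ARL2BP, a chromosome 16 neighbour, is also past it, at -0.94. Of all named probe sets, 0.578% were lower by at least 1.8 fold.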

How the data were processed

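The authors hybridized RNA of each culture to 1 Affymetrix HuGene-2_0-st array and deposited log2 expression levels per probe set. Bioconductor in R is named in the methods and MAS5 in the processing notes of the submitters. The normalization, the tool versions and the genome build were not given in the sources used here. Scanner values were not used, so background treatment stayed as the authors made it, and depth has no count on an array.

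Differences are linc00467 siRNA-1 minus control siRNA on the log2 scale, and folds are 2 raised to the size of the difference. Gene symbols came from the platform annotation, which names 16098 of 53617 probe sets, and all 16098 matched RefSeq of GRCh38.p14 by gene number. The other 37519 are unnamed here. Several probe sets of a list gene were averaged. Probe sets named within the text were every member, LINC00467, and the list members past 1.2 fold or up to 4 in each direction. The 5 probe sets nearest to MT1X and to MT2A, searched with all members left out, were also named. ATOX1, CCS, SCO2, HMOX1, NUP93, HAMP and HEPH, the 3 other MTF1 targets and the cell type markers given with values were added outside that rule, after their values were seen. Members and lists were chosen with earlier results of these data known.

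With 1 array per condition no test, error or p-value exists, and precision is limited by this number of arrays. Alternatives were quantile normalization, centring on the median difference, a lowess correction with fraction 0.2, a floor at the median of silent families, other folds and other choices of probe sets. The procedures were tested on simulated arrays built on the control levels with independent noise. Exactly equal values, as in 22.9% of named probe sets here, were not simulated, so the simulation does not cover them. Promoters came from the RefSeq table, with motifs counted in 250 bases and overlapping matches kept. Python 3.11.15, numpy 2.4.6, pandas 2.3.3 and statsmodels 0.14.6 were used, with matplotlib 3.10.9 for figures.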

Additional observations from a re-analysis of the deposited data

How the results depend on the processing

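The count of 4 metallothioneins lower by at least 1.8 fold was also 4 after centring, quantile normalization, lowess correction and flooring, without the pseudogene, and at folds of 1.2, 1.5 and 2. It was 3 when probe sets under the median level were left out, which removes MT1G. The log2 differences ranged from -1.69 to -1.66 for MT1X, from -1.52 to -1.49 for MT2A, from -1.17 to -1.13 for MT1F, from -1.16 to -1.14 for MT1G and from -0.05 to -0.03 for MTF1 over these scalings and the floor. The family median of -0.18 was -1.34 where members under the median level were left out, since only 4 remain. It was -0.095 without MT2A, MT1F and MT1G, the members found on the study's list, with MT1X kept. MT1L had 0.07 with the floor, which replaces both of its levels. The share of probe sets lower by at least 1.8 fold was 1.32% over all probe sets, named or not, and 0.907% of named ones at or above the median level, and the share higher was 0.487% over all probe sets. HSPB1 was short of 1.2 fold after quantile normalization, which left no heat shock gene lower, and 1 glucocorticoid response gene was then lower. With the floor no neighbour of MTF1 was lower, and with the highest probe set of each gene 4 neighbours of the metallothioneins were higher. No paired analysis was possible because each condition has 1 array, and no array could be left out for the same reason.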

Other observations

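One further probe set, 16819244, is named MT1CP, a metallothionein pseudogene, in the study's supplementary list but carries no name in the platform annotation, and was therefore no member. It had a log2 level of 7.60 with linc00467 siRNA-1 and 9.11 with control siRNA, a difference of -1.51. Whether it measures the pseudogene or RNA of another metallothionein was not tested.

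Named probe sets with the nearest pair of levels, by distance over the 2 arrays, were looked up for MT1X and MT2A. All metallothioneins and MTF1 were left out of this search, so MT1X and MT2A could not be found near each other. Those nearest to MT1X belonged to LIMA1, DEPDC1B, SNX12, C8orf33 and MPHOSPH9. Their log2 differences were between -1.27 and -0.88, and their distances between 0.43 and 0.58. Those nearest to MT2A belonged to NAP1L3, DEPDC1B, TIAM1, C18orf54 and LIMA1, with differences between -1.14 and -1.05. A likeness over 2 arrays is a description of these levels, and 2 of the genes, DEPDC1B and LIMA1, were near both. These genes lie on 6 chromosomes, none of them chromosome 16, where the metallothioneins left out of the search lie.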
